A study of Saccharomyces cerevisiae with 10 samples.

Results

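The genes examined are 60 nuclear genes for proteins of the mitochondrial ribosome of budding yeast, Saccharomyces cerevisiae, taken by their open reading frame names out of 6212 identifiers on the array. They carry the names MRPL, MRPS, MRP and RSM, and 35 belong to the large subunit and 25 to the small subunit. Their transcripts were compared with wild type (wt) in 5 mutant strains, named ptc1, ptc2, ptc3, ptc4 and ptc5 for type 2C protein phosphatases, which take phosphate off serine and threonine in their substrates. All strains, wt included, were grown in rich YPD medium at 28 °C to an absorbance of 0.6 to 0.8. The labels name neither the alleles nor the strain background or number of clones. Every mutant was paired with the same wt RNA on 2 arrays. Array 1 carried the mutant cDNA in Cy5 and array 2 carried it in Cy3, which gives 10 arrays from 6 RNA samples.

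The mitochondrial ribosome translates the few messages of mitochondrial DNA, which in yeast code mainly for core subunits of the respiratory chain and the ATP synthase. Nearly all of its own proteins are encoded in the nucleus, made in the cytosol and imported. Many descend from proteins of the bacterial ribosome and others exist only in mitochondria. Yeast grown on glucose can ferment and depends little on respiration, and its nuclear genes for respiration are held down by glucose repression.

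Each value is the logarithm of the mutant signal over the wt signal. It is read here as log2, although no label states the base. If the logarithm were the natural one, every change from wt would be larger than the fold given here, and the fold limits would be larger too. The SD beside a mean covers the 2 arrays of a mutant, taken as dye-swapped repeats of 1 RNA extract (n = 2, technical), so no mutant has a replicate test against wt alone. The arrays held between 4195 and 4802 values. The second ptc2 array had a median of 0.23 over all genes and the other 9 arrays had medians between −0.029 and 0.035. The deleted genes PTC1, PTC3 and PTC5 were at −1.86 or below on both arrays of their own mutant. In ptc2, PTC2 was measured on 1 array, at −7.86. The ptc4 strain could not be checked in this way, as PTC4 has no value on its arrays. Of 5 marker genes of mating type a, 3 were on all arrays, but a ratio to wt gives no level, so the cell type was not checked against them.

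Of the 60 genes, 40 had a value on all 10 arrays, 15 on some arrays and 5 on none. All 10 arrays measured 66.7% of the ribosomal genes and 58.0% of all identifiers. The genes without any value were MRPL13, MRPL15, MRPL24, MRPS17 and MRP4. MRPL31 and MRP49 had a value on 1 array only. Of the 37 genes with a counterpart in the bacterial ribosome 27 were measured on all arrays, and of the 22 found only in mitochondria 12 were. The remaining gene, RSM22, codes for a methyltransferase-like protein needed for the small subunit.

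The ribosomal genes lay close to wt in every mutant, with the lowest medians in ptc3. Their median log2 ratio was −0.075 in ptc1 over 50 genes with both arrays, 0.014 in ptc2 over 46, −0.17 in ptc3 over 49, −0.094 in ptc4 over 45 and −0.022 in ptc5 over 45. All genes had medians of −0.028, 0.12, 0.0030, 0.0050 and 0.025 in the same order of mutants. The ribosomal genes were therefore below the median of all genes in each of the 5 mutants, also in ptc2, where their own median was above 0. With every array centred on its median, the ribosomal gene medians were −0.056, −0.11, −0.17, −0.094 and −0.041 in ptc1 to ptc5. On single arrays, the median of the ribosomal genes was below that of all genes on 9 of the 10 arrays and above it by 0.047 on the first ptc5 array. Every array holds the same wt RNA, so the 5 mutants and the 10 arrays are not independent comparisons with wt.

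**Figure D1:**
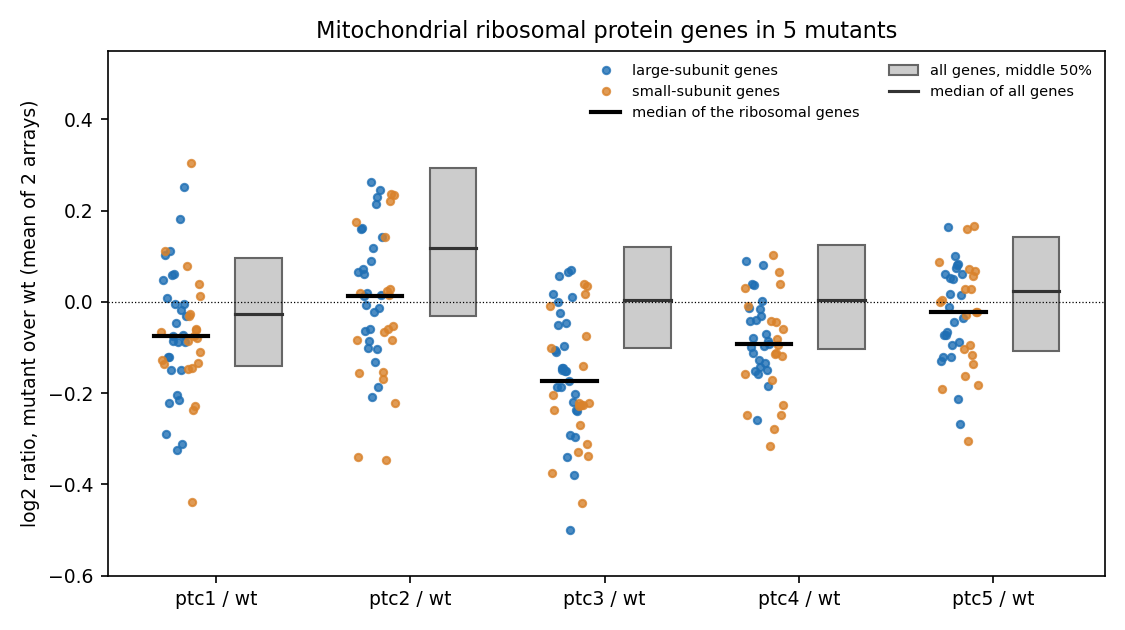
Mean log2 ratio over wt (y axis) of each mitochondrial ribosomal protein gene in ptc1 to ptc5 (x axis); points are genes coloured by subunit, the thick black line is their median, and the grey box gives the middle 50% and median of all genes. The ptc3 genes have the lowest median, −0.17, and the points of the other mutants lie around medians between −0.094 and 0.014.

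In ptc3, 41 of 49 ribosomal genes were below 0, or 83.7%, and 49.4% of all genes were. The shares below 0 were 74% in ptc1, 47.8% in ptc2, 80% in ptc4 and 55.6% in ptc5, beside 56.8%, 29.2%, 48.6% and 44.6% of all genes. Among the 40 genes with all arrays, ptc3 had the lowest of the 5 mutant means for 21 genes, or 52.5%, against 19.4% of all genes. ptc2 had the lowest mean for 0 of the 40, against 5.71% of all genes, and the highest for 14, or 35%, against 48.9% of all genes. These shares describe the arrays and have no test, since genes are not replicates and each mutant is 1 extract.

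The agreement of a mutant's arrays differed between mutants. The median SD of the 2 arrays over the ribosomal genes, from 0.10 in ptc1 to 0.16 in ptc2, was below that over all genes in every mutant, which lay between 0.12 and 0.19. Both arrays had the same sign for 36 of 49 ribosomal genes in ptc3, 29 of 50 in ptc1, 22 of 46 in ptc2, 21 of 45 in ptc4 and 16 of 45 in ptc5. The share with the same sign was thus 73.5% in ptc3, against 53.7% of all genes, and 58% in ptc1, 47.8% in ptc2, 46.7% in ptc4 and 35.6% in ptc5, against 60.6%, 61.6%, 49.95% and 51.1% of all genes. Across ribosomal genes, the 2 arrays correlated with r = 0.19 in ptc1, 0.12 in ptc2, 0.11 for ptc3, −0.34 for ptc4 and −0.27 for ptc5. Over all genes the same r was 0.51, 0.49, 0.28, 0.19 and 0.34. These correlations are across genes, which share arrays and are not independent. In ptc4 and ptc5, then, the order of the ribosomal genes on one array did not recur on the other, and in ptc1 to ptc3 it recurred only weakly.

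No ribosomal gene, in any mutant, met a strict rule of size that asked for a 2-fold mean and for 1.5-fold on each array. By this rule all genes were taken at a rate of 0.499% for ptc1, 0.979% for ptc2, 0.137% for ptc3, 0.193% for ptc4 and 0.707% for ptc5. A milder rule took genes with both arrays at least 1.2-fold in the same direction. In ptc1 it took MRPS5 as higher and MRPS8 as lower, 1 gene of 50 each way, where 5.62% of all genes were taken as higher and 2.99% as lower. In ptc3 it took 0 ribosomal genes as higher, with 2.37% of all genes, and 4 of 49 as lower, or 8.16%, with 2.99% of all genes. It took 0 ribosomal genes in ptc2, with 12.4% of all genes higher and 3.26% lower. It also took 0 in ptc4, with 3.56% and 3.32%, and 0 in ptc5, with 5.04% and 5.75%.

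The gene furthest from wt in the mean of the 5 mutants was MRPS8 (YMR158W), for the small-subunit protein of the bacterial S8 family. Its log2 ratio was −0.31 and −0.57 on the ptc1 arrays, −0.48 and −0.21 on the ptc2 arrays, −0.41 and −0.475 on the ptc3 arrays, −0.30 and −0.26 on the ptc4 arrays, and −0.35 and −0.26 on the ptc5 arrays. All 10 arrays were below 0. Both ptc1 and both ptc3 arrays lay below those of ptc4, the ptc3 arrays also lay below those of ptc5, and the other mutants overlapped. The mean of the 5 mutants was −0.36 ± 0.075 (SD, n = 5 mutants), or 0.778 of the wt level, at rank 47 from the lowest among 3606 genes. The means of the arrays with the mutant in Cy5 and in Cy3 were −0.37 and −0.355, nearly the same in both dye orientations.

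**Figure D2:**
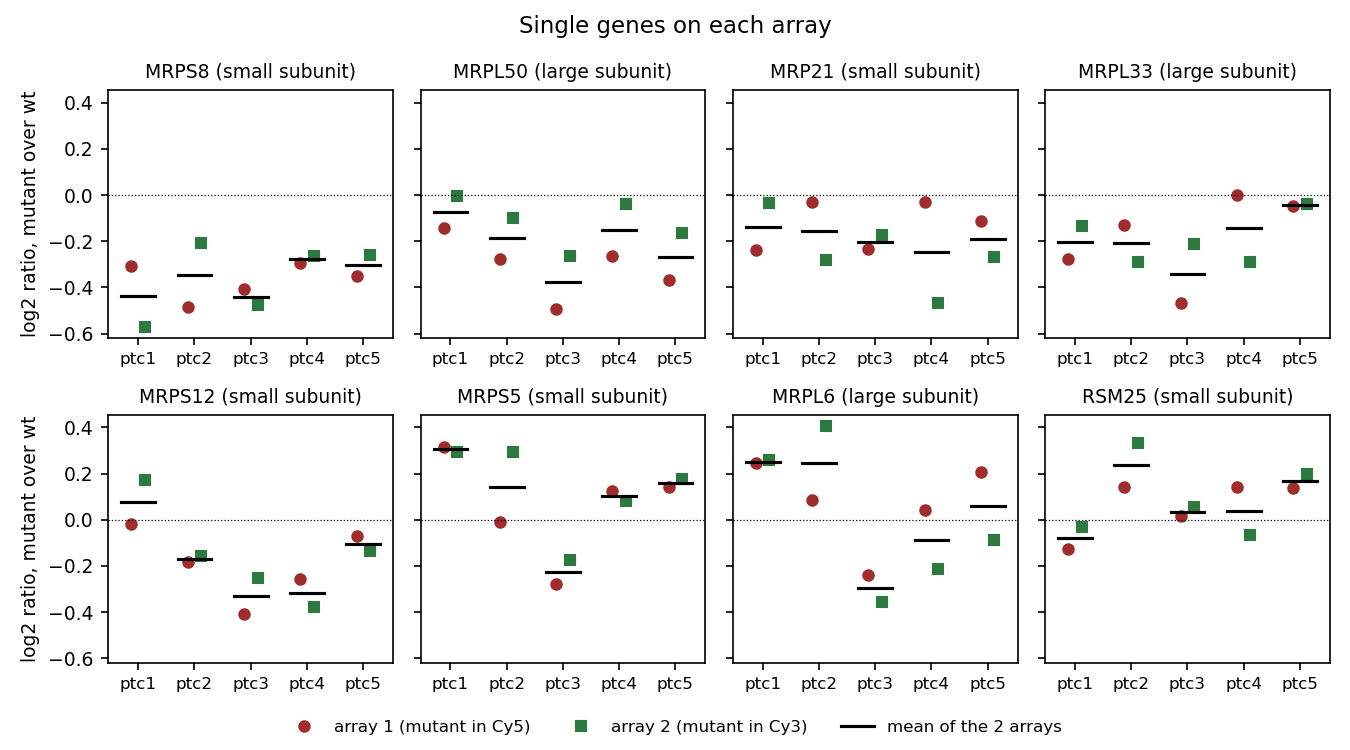
Log2 ratio over wt (y axis) on each array of ptc1 to ptc5 (x axis) for 8 ribosomal genes; circles are array 1, squares array 2 and the line is their mean. MRPS8 is below 0 on all 10 arrays, between −0.57 and −0.21, and MRPS5 is above 0 on both ptc1 arrays and below 0 on both ptc3 arrays.

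The 5 mutants were tested as a set against wt, with each mutant's mean as 1 sample. MRPS8 fell by 0.36 on the log2 scale (limma, adjusted p = 0.048), and it was the 1 ribosomal gene of 40 that passed, where 0.166% of all genes passed as lower. The call is close to the threshold and depends on the samples. The adjusted p was 0.21 without ptc2, 0.097 without ptc3, 0.30 without ptc4 and 0.23 without ptc5, and 0.080 when genes with at least 1 array per mutant were tested, while over all alternatives it lay between 0.0015 and 0.30. Every array holds the same wt RNA, so a high value in that wt extract and a low value in all mutants cannot be told apart, and the test leaves out the spread of wt. At an unadjusted p under 0.05 (limma), 8 of 40 ribosomal genes were lower and 0 higher. Of 3606 genes, 267 were lower and 583 higher at that limit. In either direction these were 20% of the ribosomal genes and 23.6% of all genes.

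The next lowest genes of the set did not pass. MRPL50 (YNR022C), of the bacterial L9 family, was at −0.14 and −0.0030 in ptc1, −0.275 and −0.10 in ptc2, −0.495 and −0.26 in ptc3, −0.26 and −0.037 in ptc4, and −0.37 and −0.17 in ptc5. All 10 of its values were below 0, and the first array was the lower of the pair in every mutant. Its mean over the 5 mutants was −0.21 ± 0.12 (SD, n = 5 mutants; limma, adjusted p = 0.093).

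MRP21 (YBL090W), of the bacterial S21 family, was also below 0 on all 10 arrays. It was at −0.24 and −0.033 in ptc1, −0.032 and −0.28 in ptc2, −0.23 and −0.175 in ptc3, −0.031 and −0.47 in ptc4, and −0.11 and −0.27 in ptc5, with a mean of −0.19 ± 0.043 (limma, adjusted p = 0.087). The mutants overlapped, and its 5 mutant means were close together. MRPS8, MRPL50 and MRP21 were the 3 of 40 ribosomal genes below 0 on every array, or 7.5%, against 1.19% of all genes; 0 of 40 were above 0 on every array, against 1.61% of all genes.

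MRPL33 (YMR286W), of the bacterial L30 family, had 9 of 10 arrays below 0 and a mean of −0.19 ± 0.11 (limma, adjusted p = 0.11). Its lowest value was the −0.47 of the first ptc3 array, and the second was at −0.21, within the range of the other mutants. All 10 arrays were also entered in a fit with a replicate block for array number. The limma adjusted p was then 0.015 for MRPL50, 0.028 for MRP21 and 0.036 for MRPL33, so these 3 genes and MRPS8 passed there. They were 4 of 40 ribosomal genes, where 514 of 3606 genes passed. That fit takes 10 arrays as independent, although pairs of them share an extract.

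MRPS12 (YNR036C), the counterpart of bacterial protein S12 near the decoding site, was highest in ptc1. Its log2 ratio was −0.017 and 0.17 in ptc1, −0.18 and −0.16 in ptc2, −0.41 and −0.25 in ptc3, −0.255 and −0.38 in ptc4, and −0.071 and −0.14 in ptc5. Both ptc1 values lay above every value of the other 4 mutants. The difference of ptc1 from the mean of the other 4 was 0.31 ± 0.14 (SE; limma, adjusted p = 0.25). RSM7 (YJR113C), of the bacterial S7 family, was at 0.019 and 0.0070 in ptc1. Its values were −0.49 and 0.046 in ptc2, −0.18 and −0.26 in ptc3, 0.045 and −0.50 in ptc4, and −0.037 and −0.33 in ptc5. Single arrays of ptc2 and ptc4 lay above those of ptc1, so the groups overlapped, and its ptc1 difference was 0.23 ± 0.13 (SE; limma, adjusted p = 0.34).

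**Figure D3:**
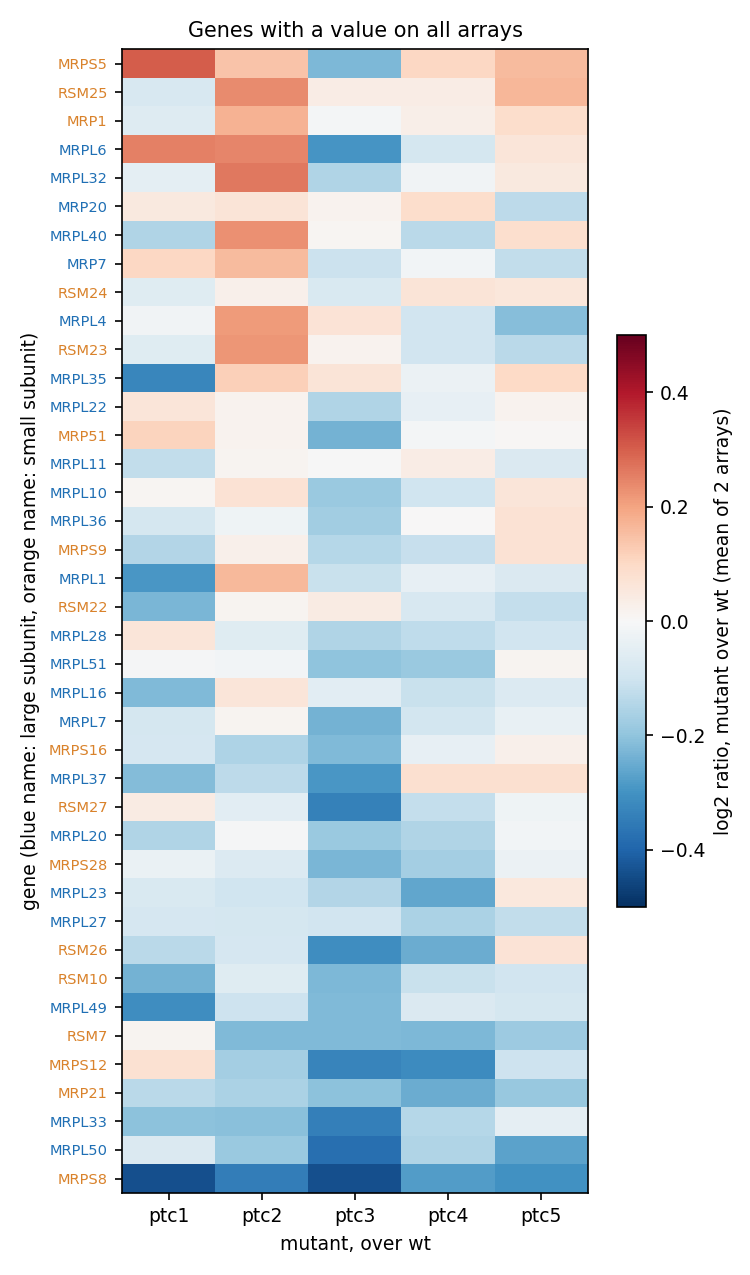
Mean log2 ratio over wt (colour, red above 0 and blue below 0) of the 40 ribosomal genes measured on all arrays (rows, highest mean at the top, names coloured by subunit) in ptc1 to ptc5 (columns). MRPS8 in the bottom row is blue in all 5 columns, and the ptc3 column is the lowest for 21 of the 40 genes.

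At the other end, no gene was higher than wt throughout. MRPS5 (YBR251W), of the bacterial S5 family, had the highest mean of the set, 0.097 ± 0.20 (SD, n = 5 mutants; limma, adjusted p = 0.47). It was at 0.32 and 0.29 in ptc1, −0.011 and 0.29 in ptc2, −0.28 and −0.17 in ptc3, 0.125 and 0.082 in ptc4, and 0.14 and 0.18 in ptc5. The ptc3 arrays were below those of all other mutants, and ptc3 differed from the mean of the other 4 by −0.40 ± 0.16 (SE; limma, unadjusted p = 0.031, adjusted p = 0.9995).

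MRPL6 (YHR147C), of the bacterial L6 family, was likewise lowest in ptc3. Its values were 0.25 and 0.26 in ptc1, 0.084 and 0.40 in ptc2, −0.24 and −0.35 in ptc3, 0.042 and −0.21 in ptc4, and 0.21 and −0.086 in ptc5. The ptc3 arrays lay below all others, with a difference of −0.41 ± 0.18 from the mean of the other 4 (SE; limma, unadjusted p = 0.049, adjusted p = 0.9995). RSM25 (YIL093C), a small-subunit protein found only in mitochondria, had a mean of 0.080 ± 0.12 and was highest in ptc2, at 0.14 and 0.33. MRP1 (YDR347W), a mitochondrial protein that resembles superoxide dismutase, had a mean of 0.044 ± 0.093. MRPL32 (YCR003W), of the bacterial L32 family and a substrate of the mitochondrial m-AAA protease, and MRP20 (YDR405W), of the L23 family at the exit of the peptide tunnel, had means of 0.019 ± 0.15 and 0.018 ± 0.087. The means of MRPL32 and MRP20 turned negative, to −0.0058 and −0.0070, when the arrays were centred.

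Each mutant was then tested against the mean of the other 4, which removes the shared wt RNA. In this limma test 0 of 40 ribosomal genes passed in ptc1, where 3.41% of all genes did (123 genes, or 301 with the replicate block on all arrays), and 0 passed in ptc2 and in ptc4, where 0% of all genes did. In ptc3 and in ptc5 0 ribosomal genes passed, and the 0.0277% of all genes that did is the deleted gene itself, PTC3 or PTC5. The test was limma throughout. At an unadjusted p under 0.05 it gave 1 ribosomal gene for ptc1 (2.5%, against 20.55% of all genes), 2 for ptc2 (5%, 11.48%) and 2 for ptc3 (5%, 2.30%). It gave 0 for ptc4 and ptc5, against 0.139% and 2.36% of all genes. The shares of all genes stand for 741, 414, 83, 5 and 85 genes in ptc1 to ptc5. The lowest adjusted p of a ribosomal gene was 0.13 in ptc1, 0.43 in ptc2, 1 in ptc4 and 0.9995 in ptc3 and ptc5.

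In ptc1, MRPL35 (YDR322W), a large-subunit protein found only in mitochondria, was at −0.095 and −0.56, and differed from the mean of the other 4 by −0.39 ± 0.13 (SE; limma, adjusted p = 0.13). Its arrays disagreed in size, and the first lay within the range of the other mutants. MRPL1 and MRPL49 (YJL096W), of the bacterial L1 and L21 families, were at −0.29 ± 0.145 and −0.31 ± 0.15 in ptc1 over wt (SD, n = 2 arrays). MRPS8 was lower still, at −0.44 ± 0.19. Against the other 4 mutants MRPL1 differed by −0.27 ± 0.14 in ptc1 and by 0.29 ± 0.14 in ptc2 (SE; limma, adjusted p = 0.31 and 0.47). At the upper end of ptc1 were MRPS5 at 0.30 ± 0.016, MRPL6 at 0.25 ± 0.0085, MRPL38, of the L14 family, at 0.18 ± 0.28, and MRP51 at 0.11 ± 0.30. MRPS5 and MRPL6 had nearly equal values on both arrays, whereas the arrays of MRPL38 and MRP51 differed in sign. MRP51 acts in the translation of messages that carry certain mitochondrial leader sequences.

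In ptc2, the highest genes were MRPL32 at 0.26 ± 0.0014, MRPL6 at 0.24 ± 0.23, RSM25 at 0.24 ± 0.13 and RSM28 at 0.23 ± 0.51 (SD, n = 2 arrays). These stand beside the median of 0.12 of all genes in ptc2. MRPL32 and RSM23 (YGL129C), which is related to a mammalian GTP-binding protein of the small subunit, exceeded the mean of the other 4 mutants by 0.30 ± 0.13 and 0.29 ± 0.12 (SE; limma, adjusted p = 0.43 for each). RSM23 was at −0.071 and 0.51 on the ptc2 arrays, and its difference on the first arrays alone was −0.028. The lowest genes in ptc2 were MRPS8 at −0.35 ± 0.19, MRP2 (YPR166C), of the bacterial S14 family, at −0.34 ± 0.12, RSM7 at −0.22 ± 0.38 and MRPL33 at −0.21 ± 0.11.

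In ptc3, the 4 genes with both arrays at least 1.2-fold lower were MRPS8, MRP2, RSM27 and MRPL37. MRP2 was at −0.44 and −0.32, RSM27 (YGR215W), a small-subunit protein found only in mitochondria, at −0.36 and −0.31, and MRPL37 (YBR268W), a large-subunit protein of that kind, at −0.305 and −0.28. RSM27 and MRPL37 lay below both arrays of the other 4 mutants, and their differences from the mean of those were −0.30 ± 0.15 and −0.25 ± 0.18 (SE; limma, adjusted p = 0.9995 for each). MRP2 had a value on 9 arrays and was not in the test; its ptc2 values, −0.42 and −0.26, overlapped those of ptc3. MRPL38 had the lowest ptc3 mean, −0.50 ± 0.63, which rests on the first array at −0.945, as the second was at −0.054. MRPS8 followed at −0.44 ± 0.048, then MRPL50 at −0.38 ± 0.16. The highest genes in ptc3 reached 0.070 ± 0.19 for MRPL4, 0.066 ± 0.062 for MRPL35, 0.057 ± 0.10 for MRPL17 and 0.040 ± 0.22 for RSM22.

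In ptc4, MRPS12 was the lowest at −0.32 ± 0.086, followed by MRPS8 at −0.28 ± 0.024, MRPL23 at −0.26 ± 0.41 and MRP21 at −0.25 ± 0.31 (SD, n = 2 arrays). The highest were MRPS5 at 0.10 ± 0.030, MRP20 at 0.089 ± 0.054, MRPL37 at 0.082 ± 0.29 and RSM24 at 0.065 ± 0.028. MRPL36 (YBR122C), of the bacterial L31 family, lies next but 1 to PTC4 on the chromosome, with 1 gene of the RefSeq table between them, and was at 0.099 and −0.096 in ptc4. Its arrays fell on either side of 0, within the range of the other mutants. Against the mean of the other 4, MRPL37 differed by 0.22 ± 0.18, MRPL23 by −0.19 ± 0.16 and MRPL40 (YPL173W), of the bacterial L24 family, by −0.18 ± 0.18 (SE; limma, adjusted p = 1 for each).

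In ptc5, MRPS8 was at −0.30 ± 0.064, MRPL50 at −0.27 ± 0.14, MRPL4 at −0.21 ± 0.16 and MRP21 at −0.19 ± 0.11 (SD, n = 2 arrays). The highest were RSM25 at 0.17 ± 0.044, MRPL17, found only in mitochondria, at 0.16 ± 0.49, MRPS5 at 0.16 ± 0.023 and MRPL35 at 0.0995 ± 0.34. RSM25 and MRPS5 were above 0 on both ptc5 arrays, and MRPL17 and MRPL35 on 1 of the 2. Against the mean of the other 4, RSM26 (YJR101W), a small-subunit protein found only in mitochondria, differed by 0.26 ± 0.16 and MRPL4 by −0.2555 ± 0.17 (SE; limma, adjusted p = 0.9995 for each). RSM26 was at 0.175 and −0.041 in ptc5, overlapping the other mutants, whose values lay between −0.47 and 0.049.

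The subunits were then set side by side. The large-subunit genes had medians of −0.075, 0.017, −0.15, −0.086 and −0.024 in ptc1 to ptc5. The small-subunit genes had medians of −0.077, −0.057, −0.22, −0.10 and −0.022. The small-subunit median was the lower one in ptc1 to ptc4, narrowly so in ptc1, and the higher one, narrowly, in ptc5. Genes with a bacterial counterpart had medians of −0.074, 0.014, −0.22, −0.095 and −0.040, and those found only in mitochondria had −0.079, −0.0075, −0.10, −0.087 and 0.035. In ptc3 the first of these classes was the lower one, with 28 of 31 of its genes below 0, beside 13 of 17 of the other class. No test bears on these class differences.

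Array number, which is the dye orientation, moved with the values of single genes in the same way in all mutants. For 5 of 40 ribosomal genes array 1 lay above array 2 in all 5 mutants, and for 6 it lay below, or 12.5% and 15%; the shares over all genes were 14.4% and 14.9%. MRPL23 (YOR150W), of the bacterial L13 family, averaged 0.0998 on the arrays with the mutant in Cy5 and −0.31 on those with the mutant in Cy3. RSM22 went the other way, at −0.26 and 0.11. The means of MRPL23 and RSM22 over both orientations, −0.11 and −0.074, therefore join values of opposite sign.

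**Figure D4:**
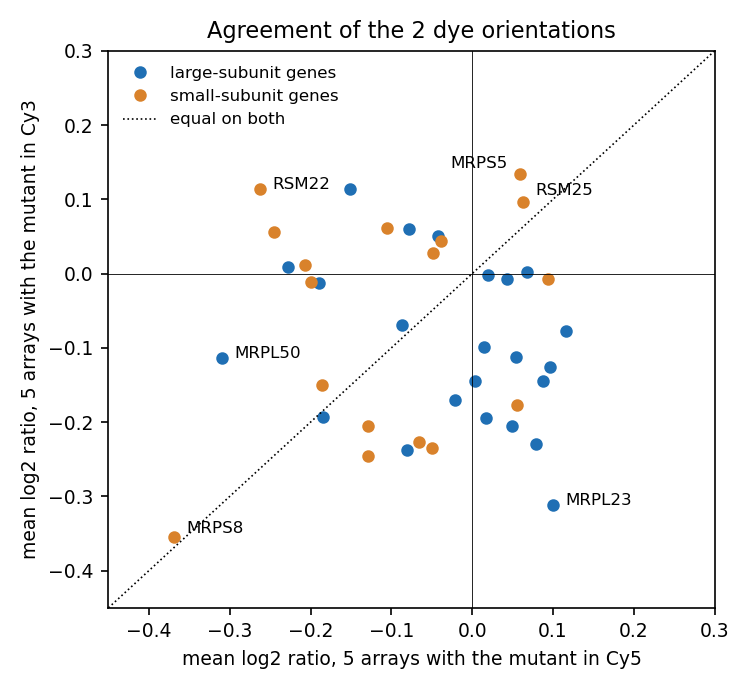
Mean log2 ratio of the 40 ribosomal genes over the 5 arrays with the mutant in Cy5 (x axis) and over the 5 with the mutant in Cy3 (y axis); points are genes coloured by subunit and the dotted line marks equal values. MRPS8 lies near the line at −0.37 and −0.355, and MRPL23 and RSM22 lie far from it with opposite signs in the 2 orientations.

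MRPS12 and RSM19 are the only pair of the 60 genes that are direct neighbours on a chromosome. RSM19 (YNR037C), of the bacterial S19 family, was at −0.37 and 0.22 in ptc1, 0.0080 and −0.097 in ptc4, and 0.082 and −0.024 in ptc5, and on single arrays at −0.32 in ptc2 and −0.42 in ptc3. The ptc3 value was the lowest of RSM19 and also, at −0.41, of MRPS12. The ptc1 arrays of RSM19 differed in sign.

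Other genes of mitochondrial translation were compared next. Their counts at an unadjusted p under 0.05 are to be read beside the shares of all genes given above for each mutant and the set. A further 14 mitochondrial ribosomal proteins lay outside the 60, such as IMG1, NAM9 and PET123. Some of them, such as MRP17 and RSM18, carry the same kinds of name as the 60. The 14 had medians of 0.015, −0.026, −0.16, −0.052 and 0.012 in ptc1 to ptc5, with 9 to 11 genes measured. As in the 60 genes, ptc3 had the lowest median, with 8 of 9 below 0. Of 8 tested, 0 passed in any limma test of a mutant or of the set, and at an unadjusted p under 0.05 SWS2 did in ptc3 and MRP17 in ptc5 and in the set. MRP17, SWS2 and RSM18, of the bacterial S6, S13 and S18 families, were furthest from 0 in the set, at −0.19 ± 0.16, −0.10 ± 0.17 and −0.10 ± 0.16 (SD, n = 5 mutants).

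Mitochondrial translation and assembly factors had medians of 0.064, 0.0090, −0.080, −0.15 and −0.11 in ptc1 to ptc5. RRF1, the ribosome recycling factor, was at 0.46 in ptc1 and −0.38 in ptc3. The elongation factor genes MEF1 and TUF1 had set means of −0.14 ± 0.059 and −0.11 ± 0.21 (SD, n = 5 mutants), and 0 of 9 factors passed in limma, with 2 in ptc2, 2 in ptc3 and 1 in the set at an unadjusted p under 0.05. Mitochondrial aminoacyl-tRNA synthetases, which charge the organelle's tRNAs, had medians of 0.012, 0.054, −0.033, −0.057 and 0.012, and 0 of 9 passed in limma, with 1 each in ptc1, ptc2, ptc5 and the set at an unadjusted p under 0.05. MSE1, DIA4 and MSW1 were furthest from 0 in the set, at −0.22 ± 0.16, 0.15 ± 0.29 and 0.14 ± 0.19.

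The translational activators, proteins that each assist certain mitochondrial messages, had medians of −0.13, 0.15, −0.020, −0.018 and −0.025, and 0 of 7 passed in limma, with 1 in ptc2 and 2 in the set at an unadjusted p under 0.05. CBP6, an activator of cytochrome b translation, was lowest at −0.27 ± 0.13, with ATP22 and PET494 at 0.18 ± 0.16 and −0.11 ± 0.14. Of the regulators, PUF3, which binds many messages for mitochondrial ribosomal proteins, had a set mean of 0.27 ± 0.23 and had its lowest mutant mean in ptc3, −0.077 ± 0.49, from arrays at 0.27 and −0.42. HAP2 and HAP1 were at 0.19 ± 0.19 and 0.10 ± 0.13, and 0 of 5 regulators passed in limma, with 1 in ptc1, 1 in ptc3 and 2 in the set at an unadjusted p under 0.05.

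The nuclear genes of the respiratory chain and ATP synthase were much further from wt than the ribosomal genes in 4 mutants. Some of their complexes, though not succinate dehydrogenase, hold products of the mitochondrial ribosome. With the arrays centred, their medians were 0.092 in ptc1, −0.39 in ptc2, −0.34 for ptc3, −0.42 for ptc4 and −0.44 for ptc5. The centred medians of the ribosomal genes were −0.056, −0.11, −0.17, −0.094 and −0.041. In ptc1 against the other 4 mutants 3 of 22 respiratory genes rose, where 62 of 3606 genes passed as higher. They were SDH4 of succinate dehydrogenase by 0.66 (limma, adjusted p = 0.027), COX13 of cytochrome c oxidase by 0.56 (limma, adjusted p = 0.037) and QCR8 of the cytochrome bc1 complex by 0.60 (limma, adjusted p = 0.048). The median difference over the 22 was 0.44. Over the 40 ribosomal genes it was −0.0061, with 20 below 0, or 50%, and 0 passed. Over all genes it was −0.084, with 63.2% below 0. Over wt the respiratory genes named here were further from 0 in the other 4 mutants than in ptc1, as SDH4 was at 0.225 in ptc1 and at a mean of −0.44 in the others. Array number moved with these values: the first arrays of ptc2 to ptc5 had SDH4 between −0.29 and −0.097 and the second between −0.81 and −0.59, while ptc1 had 0.43 and 0.020. Each mutant mean holds both orientations, and within the first and the second arrays ptc1 exceeded the other 4 by 0.61 and 0.72 for SDH4, by 0.42 and 0.70 for COX13 and by 0.51 and 0.70 for QCR8. On single array numbers these differences did not pass (limma, adjusted p between 0.091 and 0.32). In the set against wt 0 of the 22 passed in limma and 20 were lower at an unadjusted p under 0.05. Of 3606 genes, 6 passed as lower and 267 were lower at the unadjusted limit.

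Cytosolic ribosomal protein genes were lowest in ptc1, unlike the mitochondrial ones, while ptc2 was highest and ptc5 next highest in both lists. The uncentred medians of the cytosolic genes were −0.31 in ptc1, 0.22 in ptc2, 0.0080 for ptc3, 0 for ptc4 and 0.079 for ptc5. Their 2 arrays had medians of opposite sign in ptc3 (0.057 and −0.027), ptc4 (0.19 and −0.22) and ptc5 (0.26 and −0.12). Both arrays had the same sign for 39.5%, 19.5% and 25% of the cytosolic genes in these mutants. In ptc1, 118 of 119 cytosolic genes were below 0, and 37 of 50 mitochondrial ones were. In ptc3, where the mitochondrial ribosomal genes had their lowest median, the cytosolic genes had 55 of 119 below 0. All lists share the same wt RNA and arrays, and these medians are set side by side with no test. Fewer cells with a transcript and less transcript per cell cannot be told apart in such ratios of whole cultures.

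**Figure D5:**
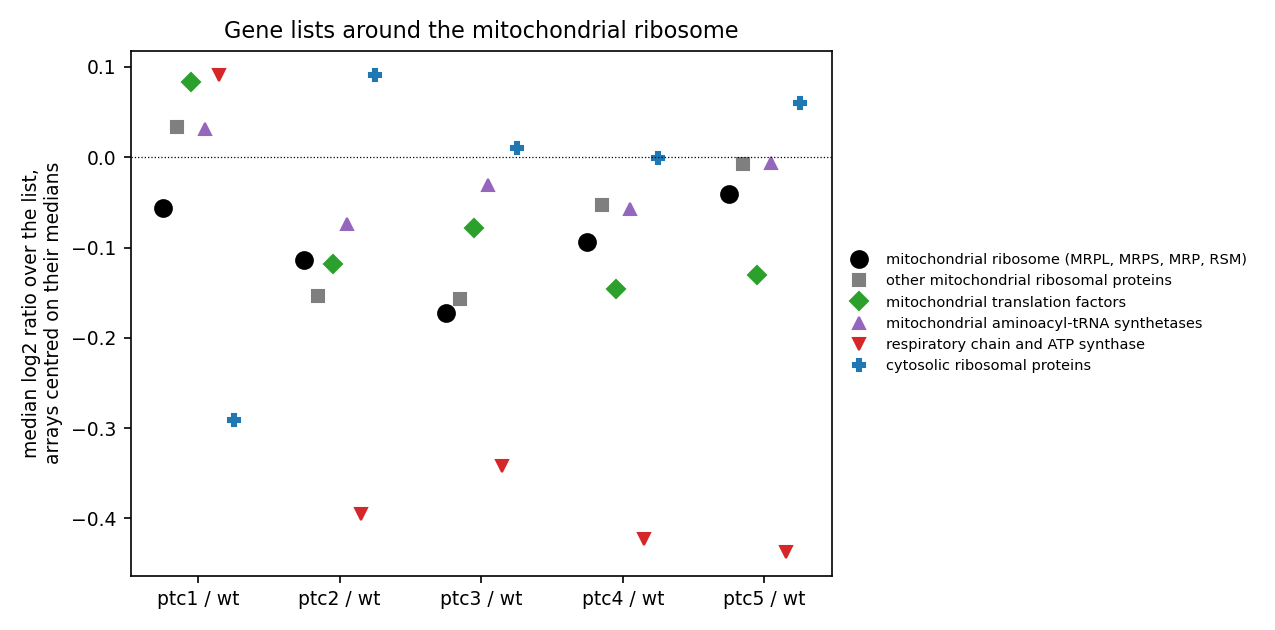
Median log2 ratio over wt of 6 gene lists (y axis), with each array centred on its median over all genes, in ptc1 to ptc5 (x axis); each symbol is 1 list. The ribosomal genes (black circles) lie between −0.17 and −0.041, the respiratory chain and ATP synthase genes (red triangles) reach −0.44 in ptc5, and the cytosolic ribosomal protein genes (blue plus signs) are lowest in ptc1, at −0.29.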

How the data were processed

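Per the labels, cDNA from 8 µg of total RNA per sample was coupled to Cy3 or Cy5, and small spots, under 120 µm, or dim ones, under 150 units, were left out. The deposited values are log ratios, read as log2, of mutant over wt per open reading frame; the log base, normalization, background correction, scanner and software are unstated in the sources used. Values were used as deposited. RefSeq's gene table (assembly R64) gave symbols to 5639 of 6212 identifiers.

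The 2 arrays of a mutant were averaged. The 3606 genes on all arrays were fitted by limma 3.58.1 (R 4.3.3), with 5 means as samples, for a mutant minus the average of the remaining 4 (3 residual degrees of freedom) and for the average of all 5 against 0 (4), with Benjamini-Hochberg adjustment over all genes and a threshold of 0.05. The p-values rest on the spread between mutant means, which holds differences between mutants together with technical spread. Repeat cultures of a strain are not stated, so the spread between cultures of the same strain is unknown. The fit was tested on simulated data with the spread of ptc2 to ptc5. It recovered 46% of genes changed by 0.5 on the log2 scale in ptc1 alone, and called 9 unchanged genes. Of genes changed by 0.5 in all 5 mutants it recovered 96%, and called 14 unchanged genes. Smaller changes were not simulated. The array number is the dye orientation. Array 1 minus array 2 correlated between every pair of mutants (10 pairs, r 0.17 to 0.67). Each mutant mean held both array numbers, and the main fits had no term for array number. A replicate block for array number was used only in an alternative fit.

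Named genes are those past a limma threshold or the stricter rule of size, the 4 highest and lowest per mutant, the 6 highest and lowest of the set, up to 3 each way by adjusted p per mutant against the others (those under the rule not named had adjusted p above 0.3), and up to 3 per other list. The 60 genes and the lists were chosen with earlier results of these data known; the cytosolic list was taken by symbol afterwards. Alternatives were centring, other fold limits, missing spots, robust moderation, arrays as samples, and omitting an array number or a mutant. Mitochondrially encoded genes were not analysed here. The planned search for promoter motifs was not run, since no sequences were used here.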

Additional observations from a re-analysis of the deposited data

Results flagged for a closer look

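Among 13 sets of 5 mutant values checked for 1 mutant far from the others, RSM7 stood out, with ptc1 at 0.013 and the other 4 mutants between −0.23 and −0.18; chance marks about 1 in 20 such sets. MRPS5 was on opposite sides of wt on all arrays of ptc1 and ptc3, and its ptc1 mean exceeded that of ptc3 by 0.53 on the log2 scale, a difference that was not tested as such. In ptc1 against the other 4 mutants, 3 of 22 respiratory genes passed the limma test as higher, where 62 of 3606 genes did. They were SDH4 by 0.66, COX13 by 0.56 and QCR8 by 0.60 (limma, adjusted p = 0.027, 0.037 and 0.048).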

How the results depend on the processing

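Centring gave the ribosomal genes a median of −0.11 in ptc2. Leaving out 1 array number gave medians from −0.121 to −0.032 in ptc1, −0.078 to 0.070 in ptc2, −0.177 to −0.135 for ptc3, −0.101 to −0.0090 for ptc4 and −0.055 to 0.082 in ptc5. At 1.1-fold on both arrays, 2 ribosomal genes were higher in ptc1 (4%, against 11.4% of all genes), 4 in ptc2 (8.7%, 25.2%) and 1 in ptc5 (2.22%, 11.5%). At that limit 8 were lower in ptc1 (16%, against 11.9% of all genes), 3 in ptc2 (6.52%, 6.02%), 18 for ptc3 (36.7%, 8.74%), 2 for ptc4 (4.44%, 8.14%) and 2 for ptc5 (4.44%, 10.9%). At 1.5-fold the counts in ptc1 and ptc3 became 0. At that limit 1.17% of all genes were higher and 0.108% lower in ptc1, and 0.137% were higher and 0.342% lower in ptc3. With centring 2 were higher in ptc1 (4%, against 6.01% of all genes), 4 lower in ptc2 (8.7%, 6.46%) and 1 lower in ptc4 (2.22%, 3.37%).

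For ptc1 against the other 4, 123 genes passed, or 56 with missing spots allowed (1 array per mutant sufficing), 42 without ptc4, 59 without ptc5, 6 to 65 with 1 array number and 301 with the replicate block on arrays as samples; ribosomal genes stayed at 0 in all. ptc2 had 2 genes with missing spots allowed, and ptc3 had 2 without ptc1. For the set, 7 genes passed, with 0 with missing spots allowed and 0 without ptc2, ptc4 or ptc5, 706 without ptc1, 194 to 349 with 1 array number, 332 with arrays as samples and 514 with the replicate block. The ribosomal count of 1 became 0 with missing spots allowed and without ptc2, ptc3, ptc4 or ptc5, 5 without ptc1, 1 to 3 with 1 array number, and 4 with arrays as samples, with or without the block. The block changed no other ribosomal call. The causes were not tested.

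Small means changed sign: in the set, MRP20 was −0.0070 centred and −0.0074 to 0.044 with 1 array number, MRPL32 −0.0058 centred, −0.041 without ptc2 and −0.077 to 0.12 with 1 array number, MRPL6 −0.0195 without ptc1 and −0.0175 without ptc2, and MRP1 −0.0068 to 0.094 with 1 array number. Against the other 4, RSM23 was −0.028 to 0.61 and RSM7 −0.45 to 0.31 in ptc2 with 1 array number, MRPL37 in ptc2 −0.1235 to 0.032 with 1 array number, 0.010 without ptc4 and 0.0097 without ptc5, and MRPL4 in ptc3 −0.15 to 0.35. Signal intensities were not used here, so the limit set by dim spots is unknown.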
